A study of Rattus norvegicus with 192 samples.

Results

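Mitochondrial ribosomal protein genes were followed in male rat primary hepatocytes, liver parenchymal cells kept on collagen, after 24 h with 1 of 38 chemicals. The members are the probes of the rat TempO-Seq panel whose gene symbol starts with Mrpl or Mrps followed by a digit. The names mrpl9, mrpl11 and mrpl24 are in lower case and fall outside this rule. TempO-Seq is a targeted method that counts 1 ligated detector probe per read, so each value belongs to a probe rather than to a whole transcript. The rule found 77 probes for 73 symbols among 22253 probes for 21143 symbols. Of these, 75 probes (72 symbols) had enough counts to be tested, among 11055 tested probes in all. The untested members were 1 of the 2 Mrpl1 probes (36350) and Mrps21l0.000001', both at 0 counts in the controls used. Of the symbols, 4 have more than 1 probe, and 5 carry unusual digits or marks; these stand as deposited and were not matched to a gene (Mrpl331.4, Mrpl360.9, Mrpl530.000001, Mrps146 and Mrps21l0.000001').

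Every culture received 0.1% DMSO, the solvent. The 29 dose-series chemicals had 1 library at each of 6 doses, the highest being 33.3 µM for 13 chemicals and 100 µM for 16. A further 9 reference chemicals had 1 library each, and 9 libraries had DMSO alone, 3 on each of 3 plates. DMSO replicates 2 to 9 served as the 8 controls, because replicate 1 stood apart. That left plate 1 with replicates 2 and 3 only. The labels do not say how many animals the cells came from or whether wells were separate cultures, so a p-value here reflects the scatter among libraries, which may be technical. A lower level can mean less RNA per cell or fewer cells of a type, which cannot be told apart in bulk libraries.

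Mitochondrial ribosomes are assembled in the matrix from rRNAs encoded by mitochondrial DNA and from proteins encoded in the nucleus, made in the cytosol and imported. Mrpl genes encode proteins of the large subunit, which joins amino acids, and Mrps genes mostly those of the small subunit, which reads the mRNA. The particle makes the few mitochondrially encoded, hydrophobic subunits of the respiratory chain and ATP synthase, and hepatocytes are rich in mitochondria. Some of the proteins have bacterial homologues and others are specific to mitochondria. Not every Mrps name marks the small subunit: structures place Mrps18a and Mrps30 in the large subunit, and Mrps36 is now assigned to the 2-oxoglutarate dehydrogenase complex.

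Library totals ranged from 582071 counts (sulforaphane) to 11249000 counts. All 10 hepatocyte markers were tested, and their summed level was 33520 to 60006 CPM, counts scaled to a common library size, in the 8 controls. Markers of macrophages summed to 88.1 to 121 CPM there, and those of endothelial cells to 13.6 to 20.2 CPM. Stellate cell and fibroblast, bile duct and lymphocyte markers, of which 2 of 7, 1 of 5 and 1 of 6 were tested, summed to at most 28.9 CPM in any control.

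The summed level of the members varied little among the 8 controls, from which DMSO replicate 1 was left out. It was 6441 ± 165 CPM (SD, n = 8), from 6295 to 6831 CPM, a coefficient of variation of 2.57%. Over all 9 DMSO libraries the sum reached 16643 CPM and the coefficient of variation was 44.9%. Mrpl probes gave 4602 ± 93.9 CPM and Mrps probes 1839 ± 89.0 CPM (SD, n = 8). Levels of single probes spread 440-fold, from 1.23 CPM for Mrps17 to 541 CPM for Mrpl51, although probes differ in efficiency and their levels rank probes, not transcripts. There were 12 members under 10 CPM, 48 from 10 to 100 CPM and 17 over 100 CPM. The 9 highest probes held 49.9% of the summed level.

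The most abundant probes in the controls were mostly those of large-subunit proteins. Mrpl51 averaged 541 ± 63.5 CPM, Mrps146 460 ± 44.7 CPM, Mrpl16 387 ± 110 CPM and Mrpl54 366 ± 64.8 CPM (SD, n = 8 each). Both Mrpl15 probes were alike in level, at 335 ± 21.7 CPM and 346 ± 41.0 CPM. Neighbours in this order overlapped in their control values. Mrpl12, the stalk protein that recruits translation factors, was at 177 ± 16.8 CPM. Mrps12, a protein of the decoding centre, was at 20.9 ± 9.64 CPM, and Mrpl58, a peptidyl-tRNA hydrolase built into the particle, at 57.3 ± 12.8 CPM. The lowest tested probes were Mrps17 (1.23 ± 0.88 CPM), the second Mrps28 probe (1.91 ± 1.02 CPM) and Mrps5 (3.08 ± 0.85 CPM), where a change of a few counts moves the value.

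Replicate spread differed widely between members. The least variable was Mrpl38, with a coefficient of variation of 6.39%, followed by an Mrpl15 probe (6.47%), Mrps23 (6.48%), Mrpl27 (6.49%) and Mrpl50 (6.96%). At the other end stood Mrps17 (71.6%), an Mrps28 probe (53.5%), Mrps12 (46.2%), Mrpl3 (43.0%) and Mrpl23 (41.9%). The member median was 17.7%. Where a gene had 2 tested probes, these did not always move together. Over the 191 libraries other than DMSO replicate 1 the correlation of log2 CPM was 0.44 for the Mrpl15 pair, -0.01 for the Mrps18b pair (73.8 and 26.7 CPM in the controls) and -0.27 for the Mrps28 pair (44.7 and 1.91 CPM). These are descriptions over libraries that share their controls and plates.

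**Figure D1:**
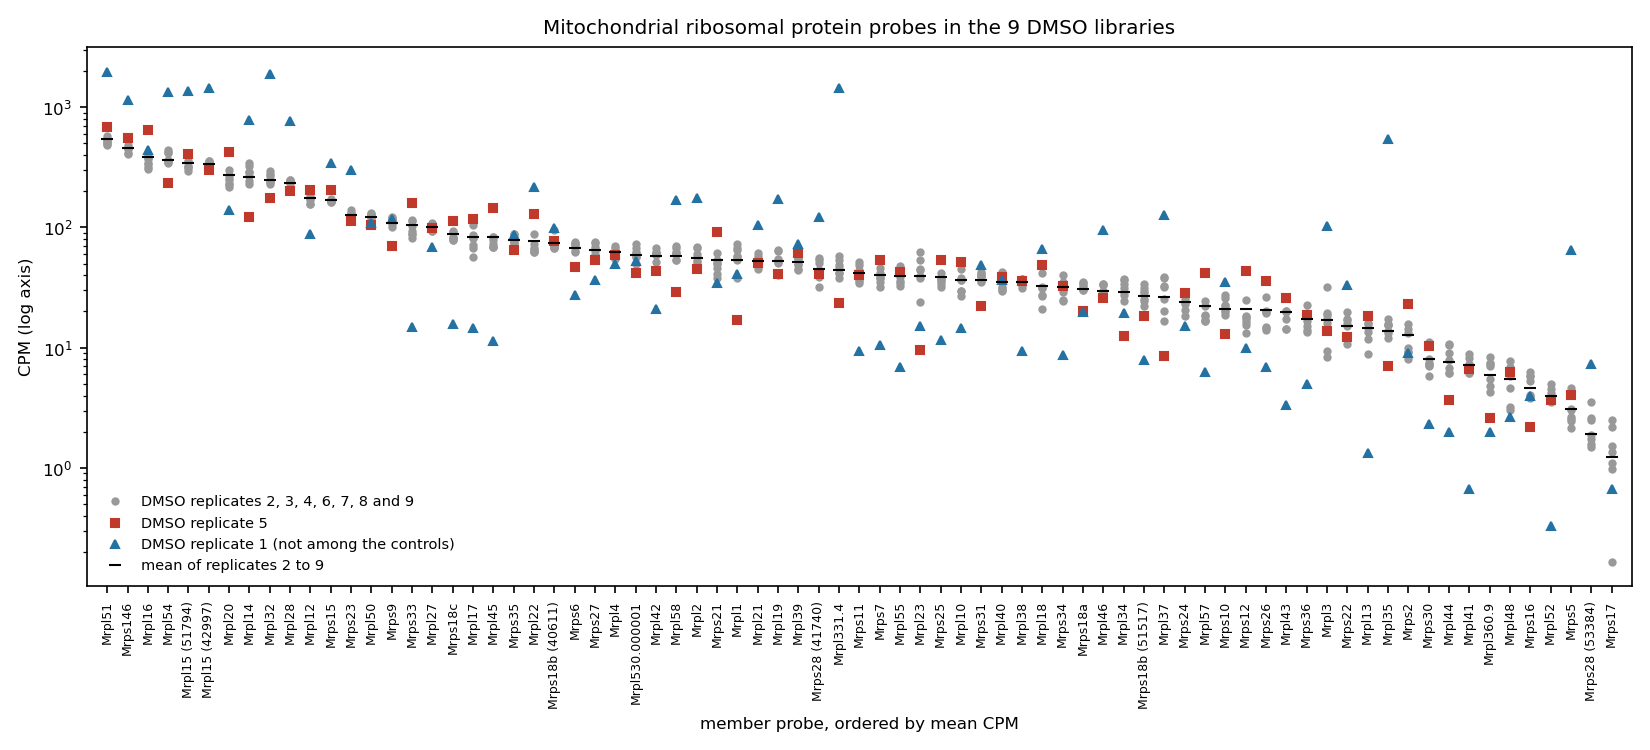
CPM on a log axis of the 75 tested member probes, ordered by their mean over 8 controls. Grey circles are DMSO replicates 2, 3, 4, 6, 7, 8 and 9, red squares replicate 5, blue triangles replicate 1 and bars the mean of replicates 2 to 9. Replicate 1 lies far from the others in both directions, as for Mrpl331.4 (1430 CPM) and Mrpl13 (1.33 CPM), and replicate 5 lies outside the other 7 for many probes.

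DMSO replicates 1 and 5 each stood apart, and members carried both patterns. In DMSO replicate 1, 23 members were at least 2-fold above the control mean and 27 at least 2-fold below it, and 51.6% of all tested probes were off by that much. Mrpl331.4 was at 1430 CPM there against 43.9 CPM in the controls, Mrpl35 at 539 against 13.7 CPM and Mrpl13 at 1.33 against 14.6 CPM. The summed level of the members was 16643 CPM in this library, or 9106 CPM on plain totals. It is not among the 8 controls.

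DMSO replicate 5, which is among the controls, differed less but in many members. There, 24 members were higher than in each of the other 7 controls and 30 were lower; over all tested probes those shares were 29.0% and 34.6%. Mrpl23 was at 9.59 CPM against a mean of 39.7 CPM over all 8 controls, and Mrpl1 at 17.0 against 53.4 CPM. In the other direction Mrps12 was at 43.1 against 20.9 CPM, and Mrpl45, a protein near the exit tunnel that faces the inner membrane, at 145 against 83.5 CPM. Mrpl16 reached 648 CPM.

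A graded form of that pattern ran through the treated libraries. Each library was scored by how far its probes, members left out, lay along the difference between DMSO replicate 5 and replicates 4 and 6 of its plate, so that replicate 5 scores 1. The score exceeded 0.5 in 11 treated libraries of 7 chemicals, only 3 of them at a highest dose. It was highest in PFOA at 100 µM (1.83), then alachlor at 33.3 µM (1.19), triticonazole at 1.2 µM (1.08) and ametryn at 3.7 µM (0.97). Across 191 libraries log2 levels of Mrpl1 (r = -0.91), Mrpl23 (-0.85) and Mrpl58 (-0.82) were lower at higher scores, and those of Mrpl45 (0.82), Mrpl16 (0.74) and Mrpl22 (0.74) were higher. These correlations describe libraries that share plates and depth, and the 11 libraries are returned to beside the results they touch. Over the same 191 libraries the median pairwise r of members was 0.08, against 0.03 over all tested probes. Without the libraries of a score above 0.5 it was 0.10 against 0.03. Pairs of opposite sign offset each other in such a median.

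**Figure D2:**
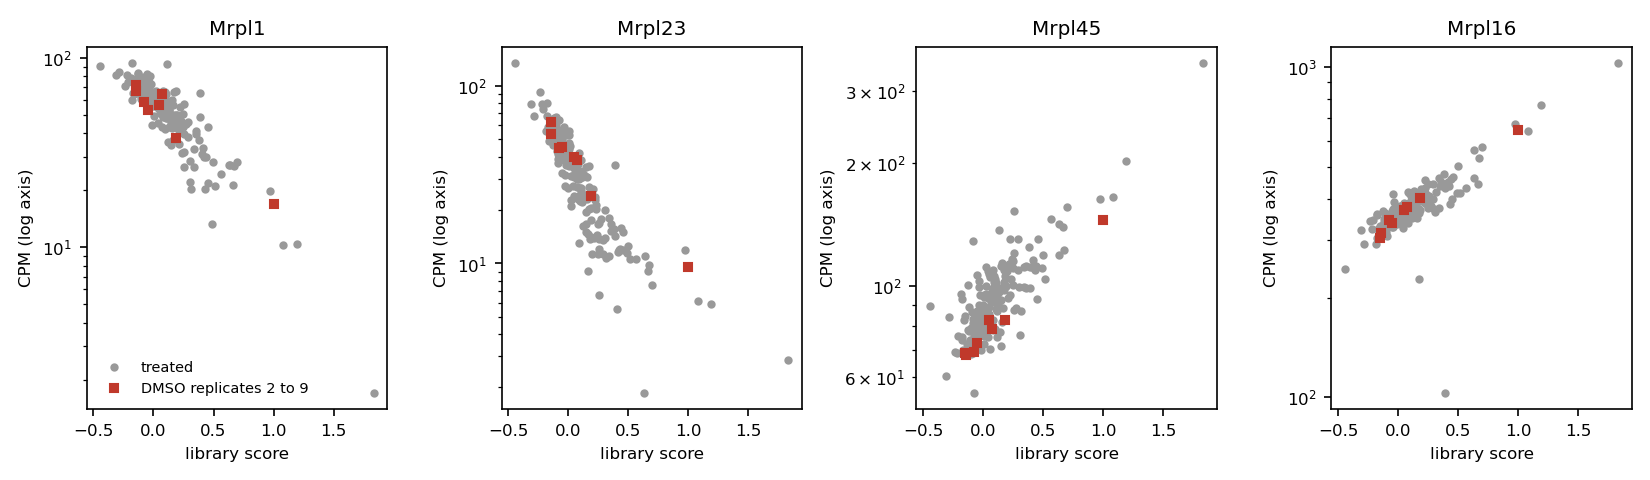
CPM of 4 members on log axes against the library score, with 183 treated libraries in grey and DMSO replicates 2 to 9 in red. Mrpl1 and Mrpl23 fall and Mrpl45 and Mrpl16 rise along the score, and DMSO replicate 5 sits at 1.

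The summed level moved little with treatment. Over 183 treated libraries it ranged from 4984 to 7985 CPM with a median of 6344 CPM, against 6295 to 6831 CPM in the controls. The lowest were sulforaphane at 10 µM (4984 CPM) and cyproconazole at 100 µM (5257 CPM), which are also the 2 shallowest of these libraries, at 582071 and 1340300 counts. In cyproconazole at 100 µM the abundant large-subunit probe Mrpl20 was at 95.3 CPM against 272 CPM in the controls, and Mrpl14 at 98.3 against 263 CPM. PFOA at 100 µM had the highest sum on this scale, 7985 CPM, but 6070 CPM on plain totals, which lies below the plain-total range of the controls (6297 to 6655 CPM). Mrpl16 (1027 CPM), Mrpl51 (1123 CPM) and Mrpl45 (350 CPM) were high and Mrpl14 (36.0 CPM) was low in it. Etoxazole at its lowest dose, 0.14 µM, came next with 7884 CPM; 26 members lay above all 8 controls and 2 below, against 17.2% and 18.5% of all tested probes.

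**Figure D3:**
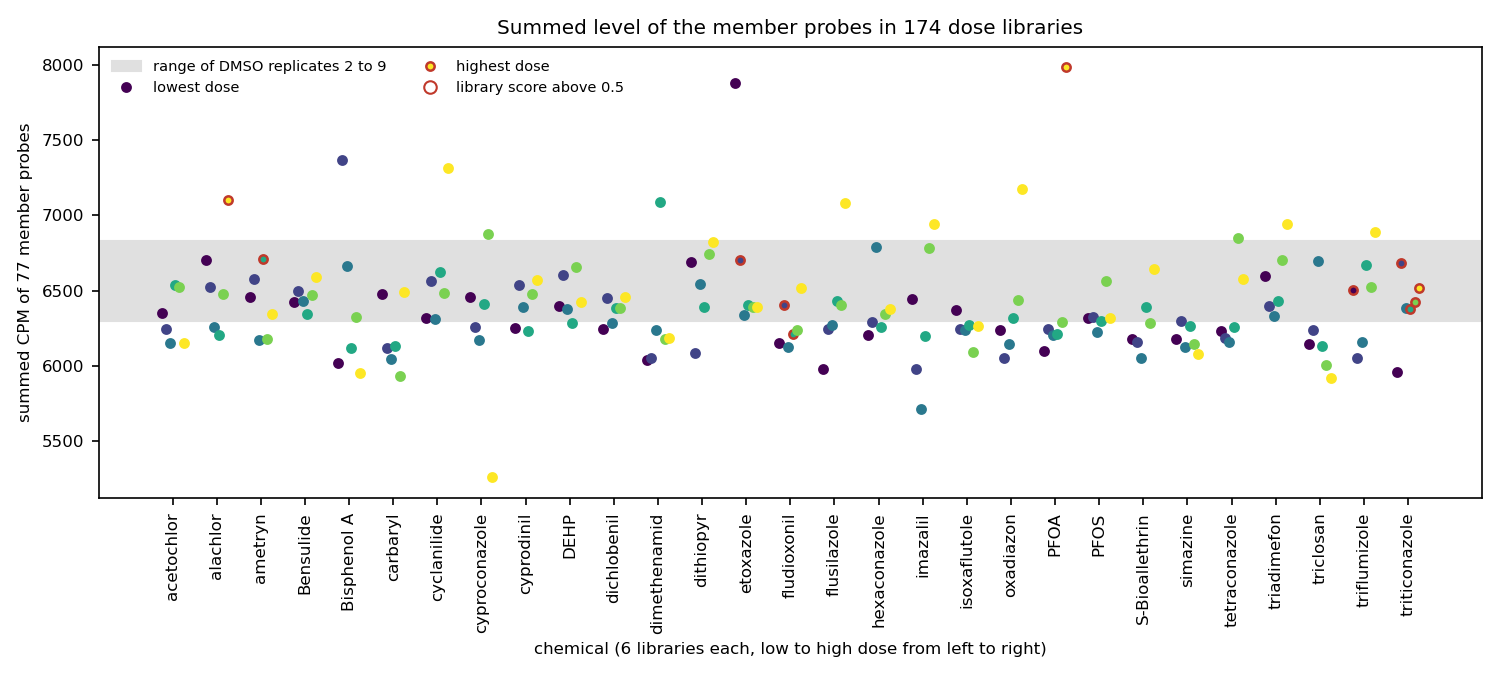
Summed CPM of the 77 member probes in the 174 dose libraries, 6 per chemical from the lowest dose (dark) to the highest (yellow). The grey band is the range of the 8 controls, 6295 to 6831 CPM, and red rims mark libraries with a score above 0.5; most points lie in or near the band.

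Dose trends were fitted for every tested probe; each is given as the log2 change that the fit places at 33.3 µM, ± its standard error. Of 2175 member trends over 29 chemicals, 18 passed an adjusted p of 0.05 in edgeR, all of them higher with dose and none lower. That is 0.828% of member trends called higher, beside a background of 0.95% of all probe trends, and 0 of 2175 called lower, beside 0.713%. The 18 calls fell on 15 probes in 6 chemicals, with 7 each for dithiopyr and imazalil and 1 each for PFOA, S-Bioallethrin, cyproconazole and triticonazole. At an unadjusted p under 0.05 there were 106 higher and 87 lower member trends, 8.87% of them beside 12% of all probe trends, and DESeq2 called 31 higher and 11 lower. Single libraries moved these counts: without DMSO replicate 5 there were 42 higher and 12 lower calls, without replicate 8 there were 9 higher, and without each highest dose there were 1 higher and 10 lower, 7 of the lower with bisphenol A. Shares of all tested probes called are not given for DESeq2 or these other fits. Their counts show how calls shift and are no result about the members. Member medians ran from -0.21 (bisphenol A) to 0.31 (imazalil). Medians over all tested probes ran from -0.07 to 0.01, but scaling to a common library size holds these near 0. A median of 75 probes also scatters more than a median of 11055, so these ranges cannot be compared directly.

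**Figure D4:**
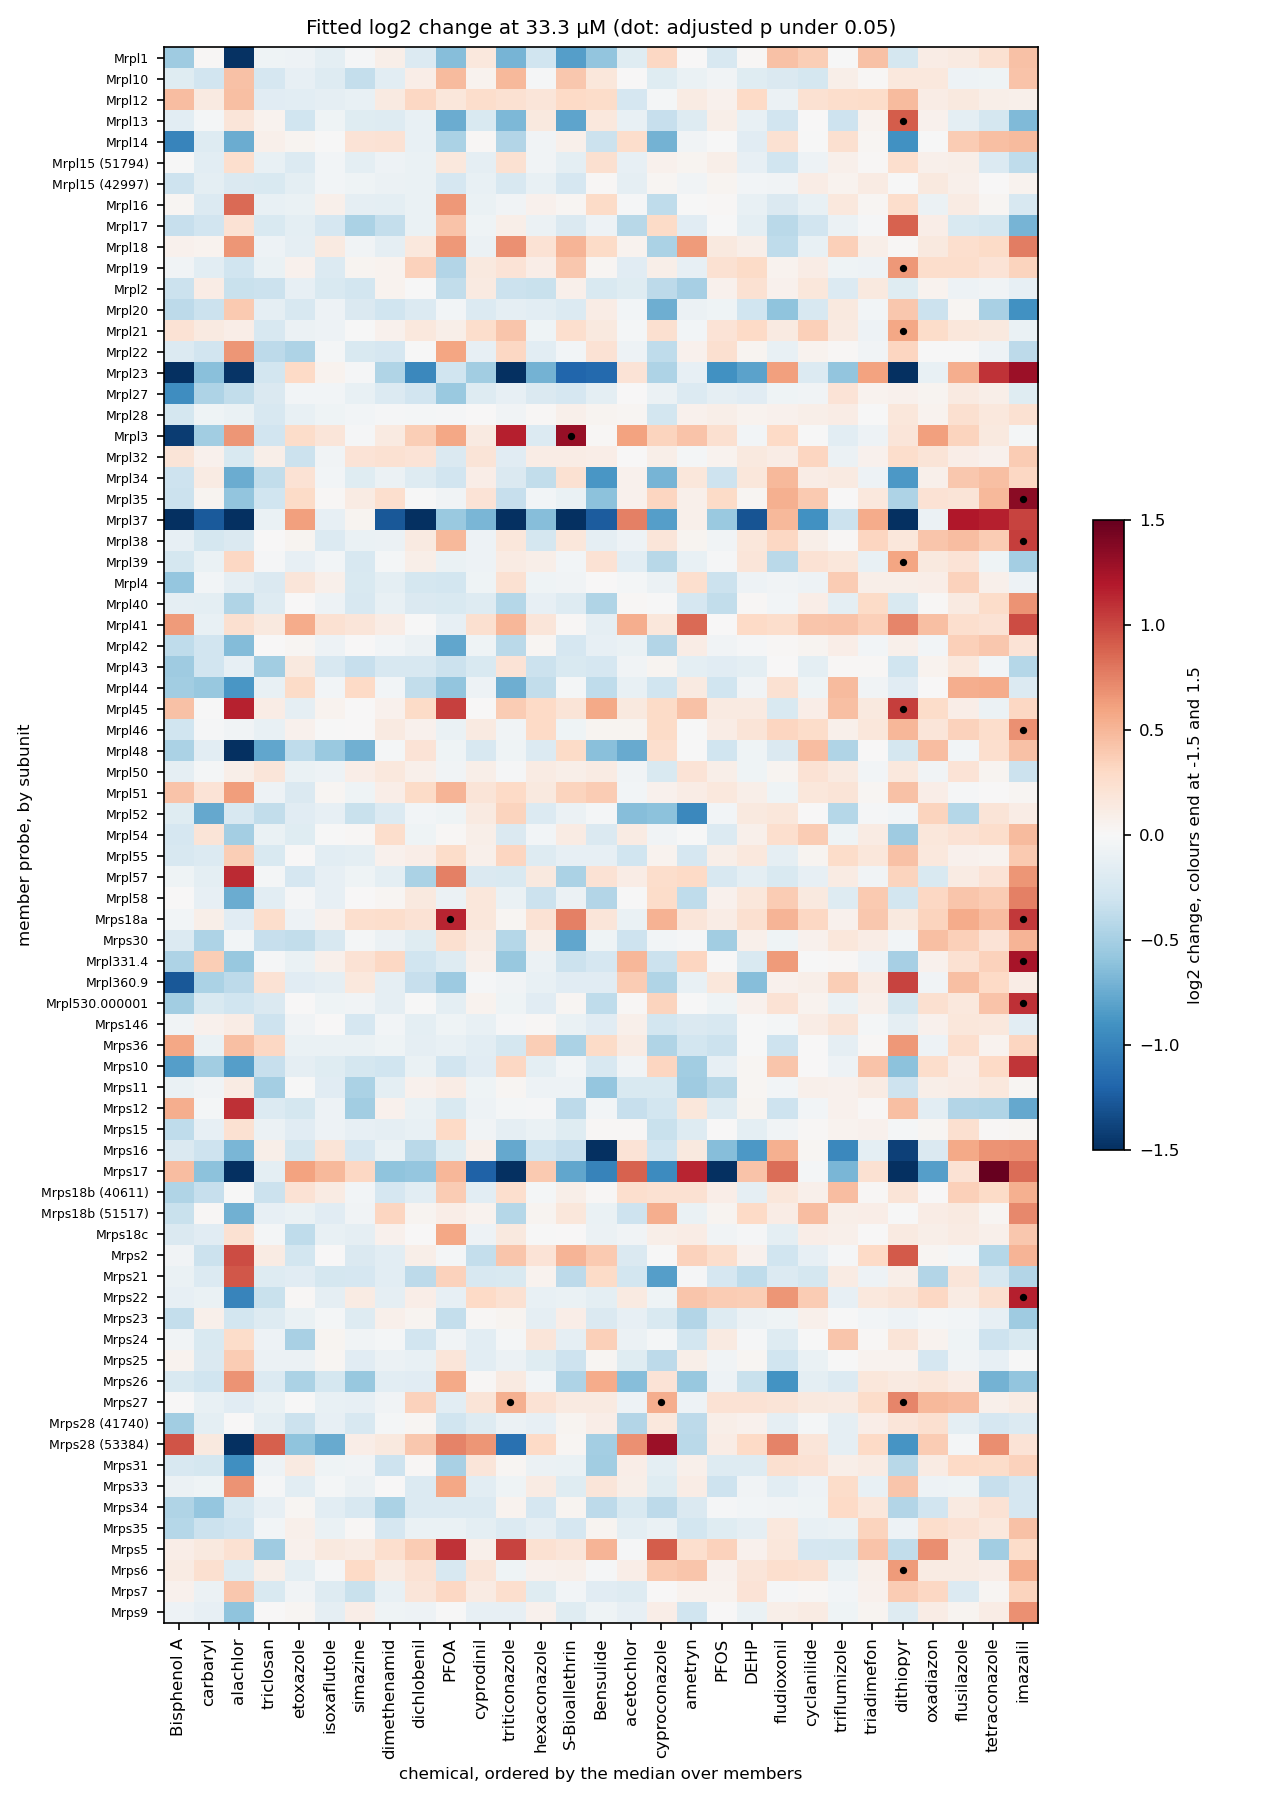
Fitted log2 change at 33.3 µM for 75 member probes (rows, grouped by subunit) and 29 chemicals (columns, ordered by the member median from bisphenol A to imazalil), with black dots at the 18 trends with an adjusted p under 0.05. Colours end at -1.5 and 1.5; the dots sit mainly in the dithiopyr and imazalil columns and on the Mrps27 and Mrps18a rows.

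With dithiopyr, a pyridine herbicide, 5 large-subunit and 2 small-subunit members rose. The 7 calls among 75 members stand beside a background of 6.26% of all tested probes called higher; no member was called lower, beside 6.74% of all. The largest was Mrpl45. Its CPM ran 76.1, 68.9, 100, 109, 109 and 153 from 0.14 to 33.3 µM, against 68.1 to 145 CPM in the controls with a median of 75.7. Only the top dose exceeded every control, because DMSO replicate 5 was at 145 CPM; the other 7 controls reached 82.7 CPM at most. The fitted change was 1.04 ± 0.26 (SE), adjusted p = 0.0156.

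Mrps6, a small-subunit protein with a bacterial homologue, lay above all 8 controls at each of the 6 dithiopyr doses. Its values were 80.1, 82.2, 83.7, 83.2, 101 and 121 CPM against 46.5 to 76.3 CPM, and the fitted change was 0.63 ± 0.17, adjusted p = 0.0264. Mrps27, a small-subunit protein with pentatricopeptide repeats, was at 65.8, 47.8, 52.5, 71.7, 75.6 and 108 CPM against 53.5 to 75.3 CPM in the controls. It exceeded the controls at the upper 2 doses, barely so at 11.1 µM (0.73 ± 0.22, adjusted p = 0.036). Mrpl13 rose from 13.3 and 11.2 CPM at the lowest doses to 25.5 CPM at 33.3 µM, against 8.89 to 18.4 CPM (0.90 ± 0.28, adjusted p = 0.0436). Mrpl19 (0.65), Mrpl21 (0.58) and Mrpl39 (0.59), the last related to threonyl-tRNA synthetase, reached 69.5, 68.4 and 68.4 CPM, no more than 1.32-fold their control means.

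The dithiopyr calls depended on the top dose and on single libraries. Without the 33.3 µM library no member was called, and with DMSO replicate 1 among the controls none was. Leaving out a control gave 3 calls without replicate 3, 4 without replicate 8 and 11 without replicate 5. The calls of Mrps6, Mrps27, Mrpl39 and Mrpl13 were lost without replicate 3, those of Mrps27, Mrpl39 and Mrpl13 without replicate 8, that of Mrpl19 without replicate 2 and that of Mrpl13 also without replicates 4, 6 or 7. Leaving out the library at 0.14, 0.4 or 11.1 µM left 4 calls each. Mrpl45 kept its call in each of these fits except the first 2. In the 33.3 µM library the hepatocyte markers summed to 15706 CPM, below the 33520 to 60006 CPM of the controls, and the macrophage markers to 51.9 CPM, below the 88.1 to 121 CPM of the controls. Stellate and fibroblast markers (2.93 CPM, controls from 3.88 CPM) were lower too. Endothelial markers (20.24 CPM) were barely above their highest control (20.23 CPM). The part of all these markers in the changes was not tested.

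With imazalil, an imidazole fungicide, 7 of 75 members rose, beside 7.68% of all tested probes called higher; none was called lower, beside 2.87% of all. These changes sat in the 33.3 µM library. Mrpl35 was at 14.8, 10.4, 17.5, 18.1, 17.1 and 40.8 CPM from 0.14 to 33.3 µM against 7.01 to 17.4 CPM in the controls (1.36 ± 0.32, adjusted p = 0.022). Mrpl38, the least variable member in the controls at 31.1 to 37.4 CPM, was at 38.6, 27.6, 31.0, 33.5, 32.8 and 85.6 CPM (1.04 ± 0.28, adjusted p = 0.031). Below the top dose both crossed the control range only narrowly, Mrpl38 on either side of it.

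Mrps22, a mitochondrion-specific small-subunit protein, followed the same course, at 10.6 to 20.0 CPM up to 11.1 µM and 43.6 CPM at 33.3 µM against 10.8 to 19.9 CPM in the controls (1.16 ± 0.32, adjusted p = 0.035). Mrps18a reached 85.0 CPM from 24.9 to 41.7 CPM at lower doses (1.06 ± 0.32, adjusted p = 0.0465). The probes Mrpl331.4 (136 CPM at 33.3 µM, 43.9 ± 10.6 CPM in the controls) and Mrpl530.000001 (150 CPM, 58.7 ± 9.79 CPM) were about as high in proportion. Mrpl46 was the smallest call, at 46.7 CPM against 29.6 ± 3.58 CPM. In that library 32 members lay above all 8 controls and 21 below, beside 32.1% and 35.1% of all tested probes.

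Without the 33.3 µM library no imazalil call remained, and with DMSO replicate 1 among the controls none did. Leaving out the library at 1.2 µM left 1 call and that at 0.14 µM left 4, whereas leaving out 11.1 µM gave 16. Without DMSO replicate 2 there were 2 calls and without replicate 8 there were 3; Mrps18a kept its call only when replicate 5 was the control left out, and Mrpl46 only for replicates 3 and 5. The hepatocyte markers summed to 17710 CPM in the top-dose library and the stellate and fibroblast markers to 3.14 CPM (controls from 3.88 CPM), both below the controls. The macrophage markers (198 CPM) and the endothelial markers (22.1 CPM, controls at most 20.2 CPM) were above them. The part of these markers was not tested.

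**Figure D5:**
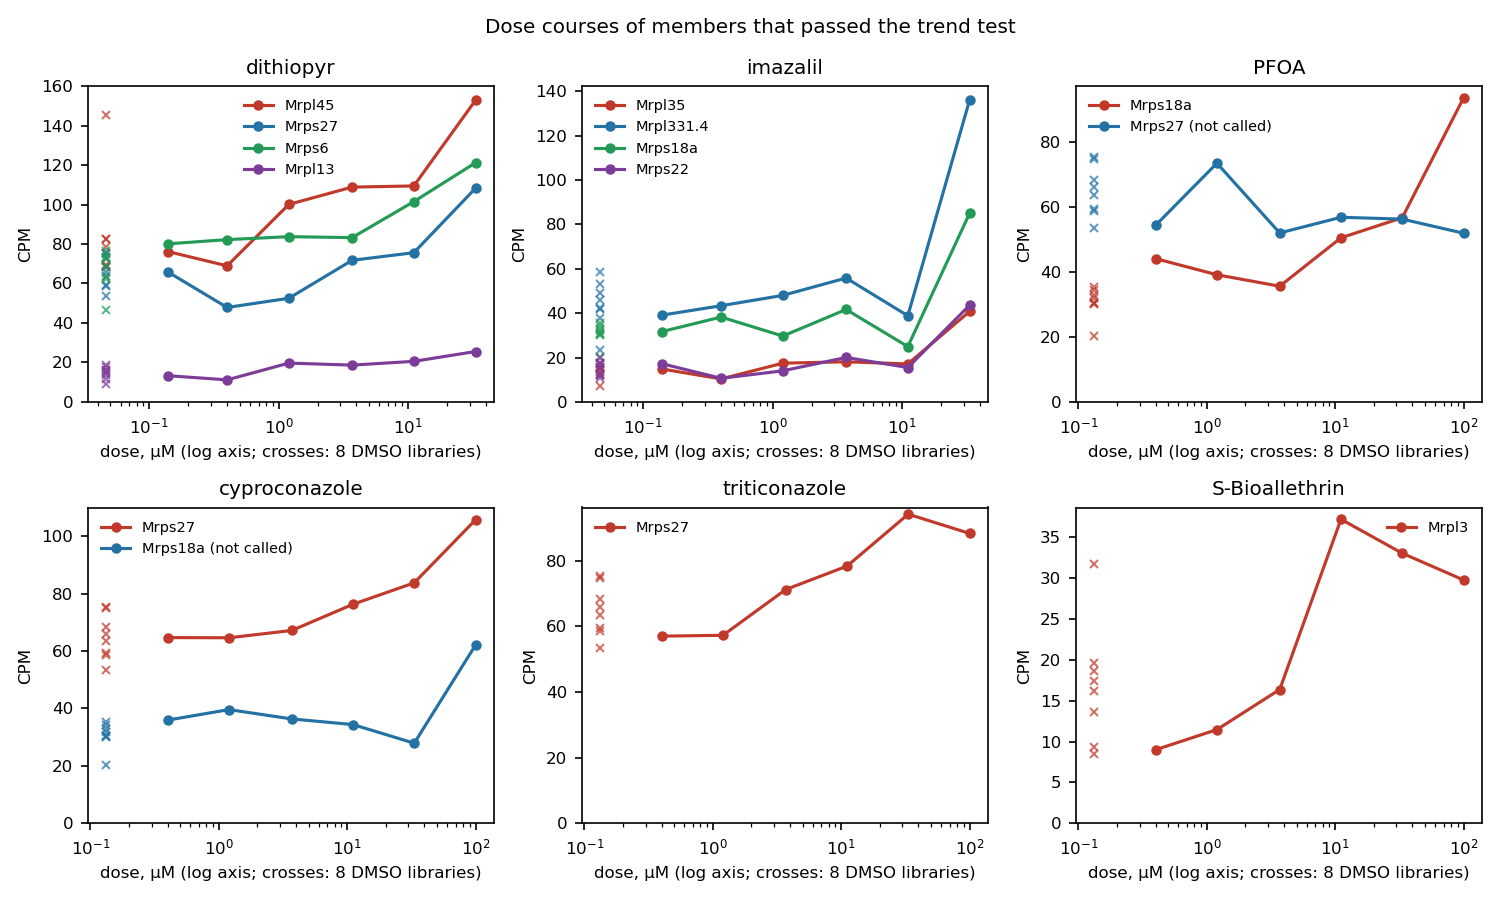
CPM by dose (log axis) of members in the 6 chemicals with a call, with crosses at the left for the 8 DMSO libraries in the same colours. With dithiopyr Mrps6 lies above its crosses at all 6 doses, with imazalil the 4 members drawn stand far above their crosses only at 33.3 µM, and with PFOA Mrps18a climbs to 93.6 CPM.

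Mrps18a was the member with the smallest adjusted p of all trends, with PFOA, a perfluorinated carboxylic acid. It was at 44.1, 39.1, 35.6, 50.5, 56.7 and 93.6 CPM from 0.4 to 100 µM, above the highest control (35.4 CPM) at each dose. The controls ran from 20.3 to 35.4 CPM, with a mean of 30.8 ± 4.65 (SD, n = 8). The fitted change was 1.14 ± 0.19, adjusted p = 0.00526, and it was the only PFOA call among 75 members, beside 2.58% of all tested probes called higher and 1.17% lower. It kept its call when any control was left out and with DMSO replicate 1 added. In the 100 µM library the summed markers of hepatocytes (63776 CPM), endothelial cells (28.5 CPM) and stellate cells and fibroblasts (15.4 CPM) lay above the controls. Those of macrophages (83.3 CPM), bile duct (12.6 CPM, controls from 16.6 CPM) and lymphocytes (0 CPM, controls from 1.84 CPM) lay below. The part of these markers was not tested. Without the 100 µM library, which has the highest score of all, the change was 0.91 with an adjusted p of 0.081; with DMSO replicate 5 left out as well, it was 0.74 with an adjusted p of 0.0817. With S-Bioallethrin Mrps18a lay between 41.7 and 62.1 CPM at all doses, above every control, but its trend of 0.76 ± 0.20 missed the threshold. At the highest dose Mrps18a lay above all 8 controls with 18 of the 29 chemicals and below all 8 with 0. Its trend was above 0 for 25 of the 29, so values above the controls were not particular to PFOA. All these comparisons share the 8 controls.

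Mrps27 was called with 3 chemicals that share those controls. With cyproconazole, a triazole fungicide, it was at 64.7, 64.6, 67.1, 76.2, 83.7 and 106 CPM from 0.4 to 100 µM, a change of 0.55 ± 0.14 (adjusted p = 0.0258). With triticonazole, another triazole, it was at 57.0, 57.3, 71.2, 78.3, 94.1 and 88.3 CPM (0.53 ± 0.13, adjusted p = 0.0405). In both series the upper 3 doses exceeded the highest control, 75.3 CPM. Mrps27 was the only member called with either, beside 5.83% and 1.04% of all tested probes called higher; none was lower, beside 3.1% and 2.14%. With cyproconazole the call was lost without the 100 µM library (0.44, adjusted p = 0.315). In that library the hepatocyte (20931 CPM), macrophage (87.2 CPM), bile duct (15.5 CPM) and lymphocyte (0 CPM) markers summed to less than in any control. The endothelial markers (39.9 CPM) and the stellate and fibroblast markers (17.0 CPM) were above the controls. The part of these markers was not tested. With triticonazole the Mrps27 call was lost without the 0.4, 3.7, 11.1, 33.3 or 100 µM library, without DMSO replicate 4, 5, 6 or 8, and without the 4 triticonazole libraries and DMSO replicate 5 that score above 0.5 (0.37, adjusted p = 0.738). In the triticonazole 100 µM library the hepatocyte (28686 CPM) and bile duct (10.5 CPM) markers summed to less than in any control. The macrophage (125 CPM) and endothelial (21.1 CPM) markers summed to more than in any control, and the part of these was not tested either.

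Mrpl3, a large-subunit protein with a bacterial homologue, was called with S-Bioallethrin, a pyrethroid insecticide. Its CPM was 9.0, 11.5, 16.4, 37.2, 33.0 and 29.7 from 0.4 to 100 µM against 8.44 to 31.7 CPM in the controls, so 2 doses lay above every control. The fitted change was 1.31 ± 0.33, adjusted p = 0.0442, beside 1.44% of all tested probes called higher and 1.49% lower. Mrpl3 is among the most variable members, and the call was lost without DMSO replicate 4, 8 or 9 or without the library at 0.4, 1.2, 3.7, 11.1 or 33.3 µM. In the 100 µM library the endothelial markers (9.61 CPM, controls from 13.6 CPM) and the lymphocyte markers (1.34 CPM, controls from 1.84 CPM) were below the controls. Their part was not tested.

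RefSeq promoter windows (GRCr8) matched 53 of the 73 symbols, with 55 windows on 16 chromosomes. The 150 bases before the start of 4 called genes are shown here, 5′ to 3′ in gene direction: Mrps18a and Mrps27, called in more than 1 series, and Mrpl45 and Mrps6, the dithiopyr calls with the smallest adjusted p among those with a window. Capitals mark matches on either strand to the letters of the NRF1 motif (GCGCA, any base, then GCGC), the ETS motif (CCGGAAG) and the SP motif (GGGCGG). Mrps18a lies on the minus strand at chr9:22367381-22367530, Mrps27 on the plus strand at chr2:32474054-32474203, Mrpl45 on the plus strand at chr10:82804889-82805038 and Mrps6 on the plus strand at chr11:44778517-44778666.
Mrps18a: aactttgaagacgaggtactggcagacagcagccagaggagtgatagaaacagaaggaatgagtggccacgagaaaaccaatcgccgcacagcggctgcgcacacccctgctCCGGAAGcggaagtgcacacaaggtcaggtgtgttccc
Mrps27: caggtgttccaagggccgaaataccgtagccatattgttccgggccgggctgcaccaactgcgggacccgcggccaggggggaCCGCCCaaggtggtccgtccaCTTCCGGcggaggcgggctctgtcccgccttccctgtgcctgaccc
Mrpl45: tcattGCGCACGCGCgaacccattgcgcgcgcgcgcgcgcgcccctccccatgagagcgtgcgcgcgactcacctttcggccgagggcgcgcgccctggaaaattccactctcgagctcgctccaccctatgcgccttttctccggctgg
Mrps6: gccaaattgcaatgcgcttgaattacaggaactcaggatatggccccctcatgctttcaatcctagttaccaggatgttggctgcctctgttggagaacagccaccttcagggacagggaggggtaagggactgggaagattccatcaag
Mrps18a and Mrps27 both hold an ETS match, from position -38 and -46 relative to the start, and Mrpl45 holds an NRF1 match from position -145. Mrps27 also holds an SP match, and the Mrps6 stretch holds none of these letters. Among the 55 member windows, searched over 250 bases before the start, 10 held the ETS letters (18.2%, against 7.27% of 33469 windows of all genes). The NRF1 letters were in 6 (10.9%, against 3.75%), the SP letters in 23 (41.8%, against 30.5%) and CCAAT in 25 (45.5%, against 34.0%). The YY1 letters AAGATGGC were in 2 and the CRE letters TGACGTCA in 1. No match overlaps another in these stretches. The start of an opposite-strand gene lay within 1000 bases upstream for 15 member windows (27.3%, against 11.04%). A match is a run of letters and no measure of binding.

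Other members had wide but uncalled trends. Mrpl37 had the lowest median trend over the 29 chemicals, -0.56, and ranged from -3.83 with bisphenol A to 1.21 with flusilazole. With bisphenol A its levels were 39.1, 2.18, 19.0, 2.10, 0.48 and 4.38 CPM from 0.14 to 33.3 µM, against 8.48 to 38.5 CPM in the controls, and the trend did not pass (adjusted p = 0.365). The library at 0.14 µM lay above every control, and 4 of the 6 lay below every control. Mrpl23 had the next lowest median (-0.45), with 49.5, 17.7, 33.0, 14.7, 21.3 and 13.0 CPM in the same series. Mrpl41, a mitochondrion-specific large-subunit protein at 7.13 ± 0.97 CPM in the controls, had the highest median, 0.25, and reached 22.3 CPM with imazalil at 33.3 µM.

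Of the reference libraries, sulforaphane was the only 1 of 9 with called members, and it was the shallowest library. There, 4 members were called higher, beside 9.93% of all tested probes, and 16 lower, beside 18.5%. The median change of all tested probes was -1.07 in this library and that of the members -0.40, and 51 of 75 members lay above the all-probe median. With DESeq2 scaling in edgeR the all-probe median was -0.997. Members had a median level of 41.8 CPM in the controls, against 16.6 CPM over all tested probes. At this depth low probes fall to few counts or none. The part of level in the place of members against that median, or in changes taken relative to it, was not tested. Mrps6 was at 261 CPM (116 counts) against 46.5 to 76.3 CPM in the controls, a change of 2.13 ± 0.24 (adjusted p = 0.000323). Mrps18a was at 117 CPM (52 counts) against 20.3 to 35.4 CPM (2.12 ± 0.28, adjusted p = 0.000734). Mrpl54 (638 CPM) and Mrps16 (18.0 CPM, 8 counts) were the other 2 called higher.

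Of the 16 called lower with sulforaphane, 12 were large-subunit probes, which make up 43 of the 75 tested members (57.3%). Both Mrpl15 probes fell, to 98.9 and 96.7 CPM on 44 and 43 counts, by 1.71 and 1.85 on the log2 scale. Taken relative to the all-probe median of -1.07, these changes were -0.64 and -0.78. Over the 16 lower calls the relative change ran from -2.47 (Mrpl39) to 0.04 (Mrps146). Mrpl12 was at 38.2 CPM on 17 counts, with a change of -2.26 ± 0.29 (adjusted p = 0.000617), and Mrpl16 at 103 CPM on 46 counts. Mrpl39 had 2 counts, a ratio to the control mean of 0.0865 with a 95% exact Poisson interval of 0.0105 to 0.313, which covers counting error only. Mrpl55 had 3 counts, a ratio of 0.170 (0.0350 to 0.496). Another 4 of the 75 members were listed at 0 counts. Stellate and fibroblast markers summed to 54.0 CPM in this library (at most 7.40 CPM in the controls) and bile duct markers to 166 CPM (at most 28.9 CPM). Endothelial markers summed to 27.0 CPM (at most 20.2 CPM) and lymphocyte markers to 0 CPM (controls from 1.84 CPM). The part of these markers was not tested. With 1 library, depth and the chemical cannot be told apart. With DMSO replicate 1 among the controls 2 higher and 7 lower calls were left, beside 353 higher and 972 lower among all 11055 tested probes. Without replicate 4 or 8 there were 2 higher calls, beside 992 and 928 among all tested probes. These counts are no result about the members.

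The other 8 reference libraries (17beta-estradiol, GW 4046, Pregnenolone 16alpha carbinonitrile, TCPOBOP, WY-14,643, dexamethasone, oltipraz and testosterone) had no called member in edgeR, beside 0.231% of all tested probes called higher and 0.321% called lower over the 8 together. At an unadjusted p under 0.05 there were from 0 members (dexamethasone, beside 4.17% of all tested probes) to 11 (Pregnenolone 16alpha carbinonitrile, 14.7% of members beside 20.3% of all), and DESeq2 called 2 higher and 1 lower in the 8 together. A test of 1 library against the controls has little power for small changes, so the absence of a call does not show that members were unchanged. Member medians lay between -0.03 and 0.15. Mrps18a was at 49.8 CPM with WY-14,643, above all controls, a change of 0.84 ± 0.25 that did not pass (adjusted p = 0.322). This was not particular to WY-14,643. The probe was also above all controls with 17beta-estradiol (49.1 CPM), oltipraz (39.6 CPM), TCPOBOP (39.1 CPM) and GW 4046 (36.3 CPM), and none of these changes passed.

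Pairs or groups of related chemicals were compared by the difference of their trends at shared doses. PFOA and PFOS carry the same kind of fluorinated chain, the first ending in a carboxylic acid and the second in a sulfonic acid. Mrps18a differed by 1.06 ± 0.18 (PFOA minus PFOS, adjusted p = 0.00215): under PFOS it stayed at 36.0, 27.6, 32.4, 32.1, 28.9 and 33.3 CPM. Mrpl19 differed the other way, by -0.84 ± 0.21 (adjusted p = 0.0307). It was at 36.8, 47.2, 33.4, 50.2, 42.0 and 21.1 CPM with PFOA and at 63.7, 56.3, 64.5, 52.6, 55.4 and 67.9 CPM with PFOS, against 39.9 to 65.0 CPM in the controls. The backgrounds were 2.46% of all tested probes higher with PFOA and 1.56% lower. Without the PFOA 100 µM library and DMSO replicate 5 (score above 0.5) the Mrpl19 difference was -0.59 with an adjusted p of 0.091, and the Mrps18a call was kept.

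Imidazole fungicides (imazalil and triflumizole) and 6 triazole fungicides differed in 1 member, beside 3.53% of all tested probes higher and 2.0% lower. Mrpl331.4 was higher with the imidazoles by 0.96 ± 0.21 (adjusted p = 0.00726). The single trends were 1.24 ± 0.33 for imazalil and 0.02 ± 0.23 for triflumizole, and from -0.57 (triticonazole) to 0.34 (tetraconazole) for the triazoles. With DMSO replicate 1 added, where this probe was at 1430 CPM, the difference was -0.30. Both imidazoles were on plate 1, whereas cyproconazole and triticonazole were on plate 2 and triadimefon on plate 3. Class was therefore partly tied to plate, which the fit held as a factor.

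No member differed between the chloroacetamide herbicides acetochlor and alachlor, nor between the triazine herbicides ametryn and simazine, in edgeR or in DESeq2. The backgrounds were 0.0% of all tested probes in either direction for the first pair, and 0.0% higher and 0.00905% lower for the second. At an unadjusted p under 0.05 there were 18 members (24.0%, beside 18.7% of all tested probes) and 4 (5.33%, beside 7.18%). Member differences had a median of 0.04 (quartiles -0.45 and 0.38) and 0.09 (quartiles -0.07 and 0.26), with a median standard error of 0.28 in each. The 95% interval of the difference lay within 1 log2 unit of 0 for 39 of 75 members in the first pair and 50 in the second. For Mrps18a it ran from -0.38 to 0.74 and from -0.43 to 0.74. Alachlor at 33.3 µM is among the libraries with a score above 0.5. Simazine was split between plates, with 33.3 and 11.1 µM on plate 1 and 3.7, 1.2 and 0.4 µM on plate 2. Its dose was therefore partly tied to plate, whereas all ametryn libraries were on plate 1.

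Genes that act with the mitochondrial ribosome or belong to the integrated stress response were read from 8 lists, with 97 genes tested in all. With imazalil 11 of the 97 rose (11.3%, beside 7.68% of all tested probes) and 1 fell (1.03%, beside 2.87%). Ddit3, a stress-induced transcription factor, rose by 4.16 ± 0.59 (adjusted p = 0.00781), Nrf1, a transcription factor of nuclear genes for mitochondria, by 1.45 ± 0.26 and Atf3, another stress-induced factor, by 2.62 ± 0.50. Of the 4 tested ribosomal proteins without an Mrp symbol, the small-subunit protein Dap3 fell by 0.91 on the log2 scale (adjusted p = 0.0460). The small-subunit protein Ptcd3, named after its value was seen, rose by 1.36. None of these 12 calls was kept without the 33.3 µM library, and 2 were kept with DMSO replicate 1 among the controls.

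With dithiopyr 4 of the 97 genes rose (4.12%, beside 6.26% of all tested probes) and 3 fell (3.09%, beside 6.74%), so the lists were not called more often than other probes. The mitochondrial DNA-binding protein gene Ssbp1 rose by 0.69 ± 0.14, and Polg2 and Polg, subunits of the mitochondrial DNA polymerase, fell by 1.77 and 0.97. None of these calls was kept without the 33.3 µM library. Of the 15 integrated stress response genes, 7 rose with cyproconazole (46.7%, beside 5.83% of all tested probes) and 4 with PFOA (26.7%, beside 2.58%). With imazalil 3 rose (20%, beside 7.68%), with dithiopyr 2 (13.3%, beside 6.26%) and with S-Bioallethrin 2 (13.3%, beside 1.44%). With triticonazole 1 rose (6.67%, beside 1.04%). Counts of 1 to 3 are no result about the list. Without the 100 µM library 0 of the 7 cyproconazole calls and 1 of the 4 PFOA calls were kept, the last being Ddit3 (1.26 ± 0.15 with all doses, 1.32 without the highest).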

How the data were processed

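The authors deposited whole-number counts per probe for 192 libraries; per the submitters' processing notes reads were aligned with Bowtie, whose version is not given in the sources used here. Totals ran from 582071 to 11249000 counts. Probes with at least 10 counts at the median depth (1.74 CPM) in at least 6 libraries were tested. Trends on log2(1 + dose in µM), reference libraries and 4 contrasts of trends were fitted with edgeR 4.0.16 (quasi-likelihood F test, TMM scaling, plate as a factor, R 4.3.3), with Benjamini-Hochberg adjustment over the 11055 tested probes and a threshold of 0.05. A lone reference library was assumed to vary as the controls do. CPM is on TMM-scaled library sizes. DESeq2 1.42.0 and other settings were tried as alternatives. The fits were tested on simulated data, where fewer small changes were recovered in a single reference library than in a dose trend. In the simulated single library 8.26% of calls were false, against 4.17% and 4.08% in the simulated trends and 4% in the contrast. Named members were called, or extreme in level, spread or median trend, or in a fixed panel. Members, lists and rules were chosen with earlier results of these data known. The library score and the fits that use it were chosen after seeing the data.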

Additional observations from a re-analysis of the deposited data

Results flagged for a closer look

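Among 75 tested members and the summed levels, 1 of the 8 controls lay apart from the other 7 by more than Dixon's limit for 18 member probes and 2 sums. Chance flags about 1 in 20 groups. DMSO replicate 5 was that library in 19 cases and replicate 7 in 1. Flags from the same library are not independent. Over all tested probes, replicate 5 was higher than each of the 7 others for 29.0% and lower for 34.6%. The share of all tested probes beyond Dixon's limit is not given here.

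In replicate 5 the high values were those of Mrpl16 (648 CPM, others 305 to 402), Mrpl20 (427 CPM, others 216 to 299), Mrps15 (204 CPM, others 162 to 174), Mrps33 (161 CPM, others 81.7 to 114) and Mrpl45 (145 CPM, others 68.1 to 82.7). Further high values were Mrpl22 at 130 CPM, Mrps18c at 112 CPM, Mrps21 at 92.2 CPM, Mrps25 at 53.8 CPM, Mrps12 at 43.1 CPM and Mrpl57 at 41.7 CPM. The low values were those of Mrpl54 (236 CPM, others 345 to 440), Mrps9 (70.1 CPM, others 100 to 123), Mrps6 (46.5 CPM, others 62.2 to 76.3) and Mrpl58 (29.1 CPM, others 53.6 to 70.2). Mrps31 was at 22.1 CPM and Mrps18a at 20.3 CPM, also below the others. The summed level was 6831 CPM there (others 6295 to 6461) and that of the Mrpl probes 4812 CPM (others 4497 to 4613). In replicate 7 an Mrps18b probe was at 95.6 CPM (others 67.6 to 76.7).

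A tested difference between chemicals passed the threshold for 3 members: Mrps18a (1.06) and Mrpl19 (-0.84) for PFOA minus PFOS, and Mrpl331.4 (0.96) for imidazoles minus triazoles.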

How the results depend on the processing

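No paired analysis was possible because the DMSO replicate numbers have no counterpart among the treated libraries, of which there is 1 per chemical and dose. With 1 library per dose, calls rest on single libraries, and low probes such as Mrps17 rest on few counts. The cause of the shifts below was not tested. Shares of all tested probes are not given here for these settings, so the counts are no result about the members.

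The 18 higher member calls over 29 trends became 1 with all 9 DMSO libraries, 31 with DESeq2, 35 without the plate term, 8 with doses by rank, 1 without each highest dose, 37 with the library score as a covariate and 35 without libraries of a score above 0.5, and ranged from 9 to 42 when a control was left out. The 0 lower calls became 11 with DESeq2, 3 without the filter, 12 without the plate term, 1 by rank, 10 without each highest dose, 21 with the covariate and 9 without libraries of a score above 0.5, and ranged from 0 to 12 without a control. The 3 lower-case names outside the rule, mrpl9, mrpl11 and mrpl24, would raise the higher calls to 20. In edgeR mrpl9 also passed in imidazoles minus triazoles (0.46 ± 0.12, adjusted p = 0.0248). With sulforaphane mrpl11 passed on 3 counts (-3.33 ± 0.43, adjusted p = 0.00071). The 6 chemicals with a call became 1 with all 9 DMSO libraries, 10 with DESeq2, 2 without each highest dose and 14 with the covariate, and ranged from 4 to 9 without a control.

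The 7 dithiopyr calls became 0 with all 9 DMSO libraries, 3 without the filter, 1 by rank, 0 without the highest dose, 11 without libraries of a score above 0.5, and 4 without the library at 0.14, 0.4 or 11.1 µM; without a control they ranged from 3 to 11. The 7 imazalil calls became 0 with all 9 DMSO libraries, by rank and without the highest dose, 4 with the covariate, 4 without the 0.14 µM, 1 without the 1.2 µM and 16 without the 11.1 µM library; without a control they ranged from 2 to 10. For sulforaphane the 4 higher calls became 2 with all 9 DMSO libraries and 8 with the covariate (2 to 5 without a control), and the 16 lower calls became 7 with all 9 (15 to 19 without a control).

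The 1 higher call in PFOA minus PFOS became 2 with DESeq2 or its size factors, 4 with the covariate and 6 without libraries of a score above 0.5; the 1 lower call became 0 with all 9 DMSO libraries, 4 with the covariate and 2 without libraries of a score above 0.5. In imidazoles minus triazoles the 1 higher call became 0 with all 9 DMSO libraries, 2 with DESeq2, its size factors or no plate term, and 5 with the covariate or without libraries of a score above 0.5 (1 to 4 without a control). The other 8 reference libraries had 2 higher and 1 lower call with DESeq2, 9 and 2 with the covariate, and 1 higher without libraries of a score above 0.5 (0 to 1 without a control). The summed control level of 6441 CPM was 7574 CPM with all 9 DMSO libraries and 6385 to 6461 CPM without a control.

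Direction turned with all 9 DMSO libraries for Mrpl19 with dithiopyr (-0.15), for Mrpl331.4 (-1.98), Mrpl35 (-2.23) and Mrpl46 (-0.060) with imazalil and for Mrpl331.4 in imidazoles minus triazoles (-0.30). Without the highest dose it turned with imazalil for Mrpl331.4 (-0.084), Mrpl38 (-0.11), Mrpl530.000001 (-0.070) and Mrps18a (-0.20).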

Other observations

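The library of cyclanilide at 100 µM had a summed member level of 7313 CPM, with 19 members above all 8 controls and 0 below, beside 15.3% and 16.9% of all tested probes. In bisphenol A at 0.4 µM the sum was 7367 CPM, with 21 members above and 3 below, beside 12.5% and 14.9%. No member trend was called for either chemical with all doses. For bisphenol A, 7 were called lower without the highest dose, a count given without the share of all tested probes in that fit.

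Promoter windows of members had a median GC content of 53.6%, against 51.2% over all windows.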
